A study of Mus musculus with 12 samples.

Results

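The axon guidance ligands and receptors are the semaphorins with their plexin and neuropilin receptors, the Slits with the Robo receptors, the netrins with the Unc5 receptors, and the ephrins with the Eph receptors. They were chosen by gene symbol alone: 67 rows of the count table carried a symbol of these families, and 55 of them held at least 10 counts in at least 2 libraries, against 13932 of 32245 genes in the whole table. All 55 passed the filter of the test and are described here. They comprised 32 ligands and 23 receptors. The other 12 rows fell below the minimum and were Epha5, Epha6, Epha7, Epha10, Ephb1, Plxna4, Plxnb3, Robo3, Robo4, Sema5b, Slit1 and Unc5d. Unc5a held 10 counts in at least 2 libraries in the KO line only, and Epha1 and Sema6b in the WT line only. These 3 entered through one line, and their calls support nothing about the list.

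The cells were OCY454, a mouse osteocyte-like line that is kept at a lower temperature to grow and differentiates once it is moved to 37 °C. Piezo1 KO cells, in which CRISPR-Cas9 had removed exons 19 to 21 of the gene for the mechanically gated cation channel Piezo1, were compared with unedited WT cells after 1, 14 and 28 days at 37 °C, as poly(A) RNA in 2 libraries for each of the 6 groups. All 6 groups are of the OCY454 line and carry no treatment beside the change of temperature. The number of edited clones and the nature of the replicates (separate cultures or not) are not stated in the labels. A p-value here therefore speaks only of the spread between the 2 libraries of a group, estimated over all 6 groups together. In bulk RNA, fewer cells that express a gene and less RNA of it per cell cannot be told apart.

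Guidance cues were first described as signals that attract or repel growing axons, and they also steer cell contacts, vessels and bone cells. Secreted class 3 semaphorins bind neuropilins that signal through A-type plexins, while many membrane-bound semaphorins bind plexins directly. Slits bind Robo receptors, netrins bind Unc5 receptors and the co-receptors Dcc and Neo1, and ephrins and Eph receptors signal in both directions between touching cells. In bone, Sema3a is known to protect bone mass, Sema4d to restrain osteoblasts through Plxnb1, Slit3 to favour bone formation, and Efnb2 with Ephb4 to pass signals between osteoclasts and osteoblasts.

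Total counts ran from 8590067 to 15357427 per library and TMM scaling factors from 0.9417 to 1.051. Piezo1, whose remaining exons are still counted after the deletion and which therefore hardly checks the label, averaged 170, 111 and 279 CPM in KO and 215, 208 and 238 CPM in WT on days 1, 14 and 28. Of 12 markers of osteoblasts and osteocytes, Col1a1, Ibsp, Alpl, Sp7 and Runx2 were abundant, the osteocyte gene Dmp1 peaked at 16.1 CPM and Sost at 1.3 CPM, and Fgf23 stayed under 1 CPM. The summed level of that list was 8750 to 8790, 21900 to 22200 and 2900 to 4590 CPM in KO on the 3 days, against 8810 to 8900, 11700 to 12200 and 3860 to 5540 CPM in WT. The sum followed Col1a1, which averaged 17800 CPM in KO and 7200 CPM in WT on day 14. Other genes of the list lay the other way on that day, Ibsp at 2390 CPM in KO and 3530 CPM in WT and Dmp1 at 7.28 and 14.0 CPM. Their part in the differences below was not tested. Of 8 neuron markers 6 never reached 1 CPM (Nefl was at 0) and Tubb3 carried most of the sum, which was 38.8 to 40.9, 33.5 to 37.8 and 8.83 to 16.1 CPM in KO and 30.9 to 35.7, 16.0 to 17.6 and 8.92 to 17.1 CPM in WT. Of 6 Schwann cell markers 3 never reached 1 CPM (Foxd3 was at 0), and the sum was 2.99 to 5.1 CPM in KO and 4.26 to 5.91 CPM in WT. Of 6 endothelial markers 3 never reached 1 CPM, and the sum was 1.32 to 2.45 CPM in KO and 2.08 to 5.94 CPM in WT. Of 7 markers of blood cells and osteoclasts 2 never reached 1 CPM, and the sum, mostly Ctsk, was 145 to 196 CPM in KO and 116 to 198 CPM in WT.

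Below, a level is in CPM (reads of the gene relative to the TMM-scaled library total), given for replicate 1 and replicate 2 of a group, or in CPM per kilobase of exon where genes are compared with each other. A difference is a log2 fold change with its standard error after ±, from edgeR's quasi-likelihood test over 12 libraries with n = 2 per group, and adjusted p is its Benjamini-Hochberg value over all 13772 genes tested. A gene is called where adjusted p is below 0.05.

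Many of the guidance genes differed between the lines. In KO against WT, 32 of the 55 were called on day 1, where 40.3% of all genes tested were called. On day 14 it was 33 of 55, against 49.7% of all genes, and on day 28 it was 30 of 55, against 41.0%. On day 1, 13 were higher in KO (19.5% of all genes were) and 19 lower (20.8% of all genes). On day 14, 17 were higher (23.8%) and 16 lower (25.9%), and on day 28, 9 were higher (19.8%) and 21 lower (21.2%). With library totals in place of TMM factors, the background split was 15.4% higher and 24.8% lower on day 1 and 13.1% higher and 26.8% lower on day 28. The median difference of the 55 was -0.10, -0.01 and -0.15 on the 3 days, against -0.01, -0.02 and -0.01 over all genes, and the median absolute difference 0.51, 0.43 and 0.37, against 0.26, 0.34 and 0.26. Differences of at least 2-fold were called for 14, 14 and 10 guidance genes, where 9.28%, 12.7% and 9.19% of all genes reached that size. Of these, 5 were higher (2.21% of all genes) and 9 lower (7.07%) on day 1, and 4 higher (3.33%) and 10 lower (9.33%) on day 14. On day 28 all 10 were lower in KO, where 7.8% of all genes were lower and 1.39% higher. Sema6b and Epha1, which entered through WT libraries only, are in these counts. Sema6b was among those lower on each day, and Epha1 among those lower on days 14 and 28. Of the 32, 33 and 30 calls, 26, 25 and 18 held under each of 19 alternative settings, and those that did not are named with their family below.

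**Figure D1:**
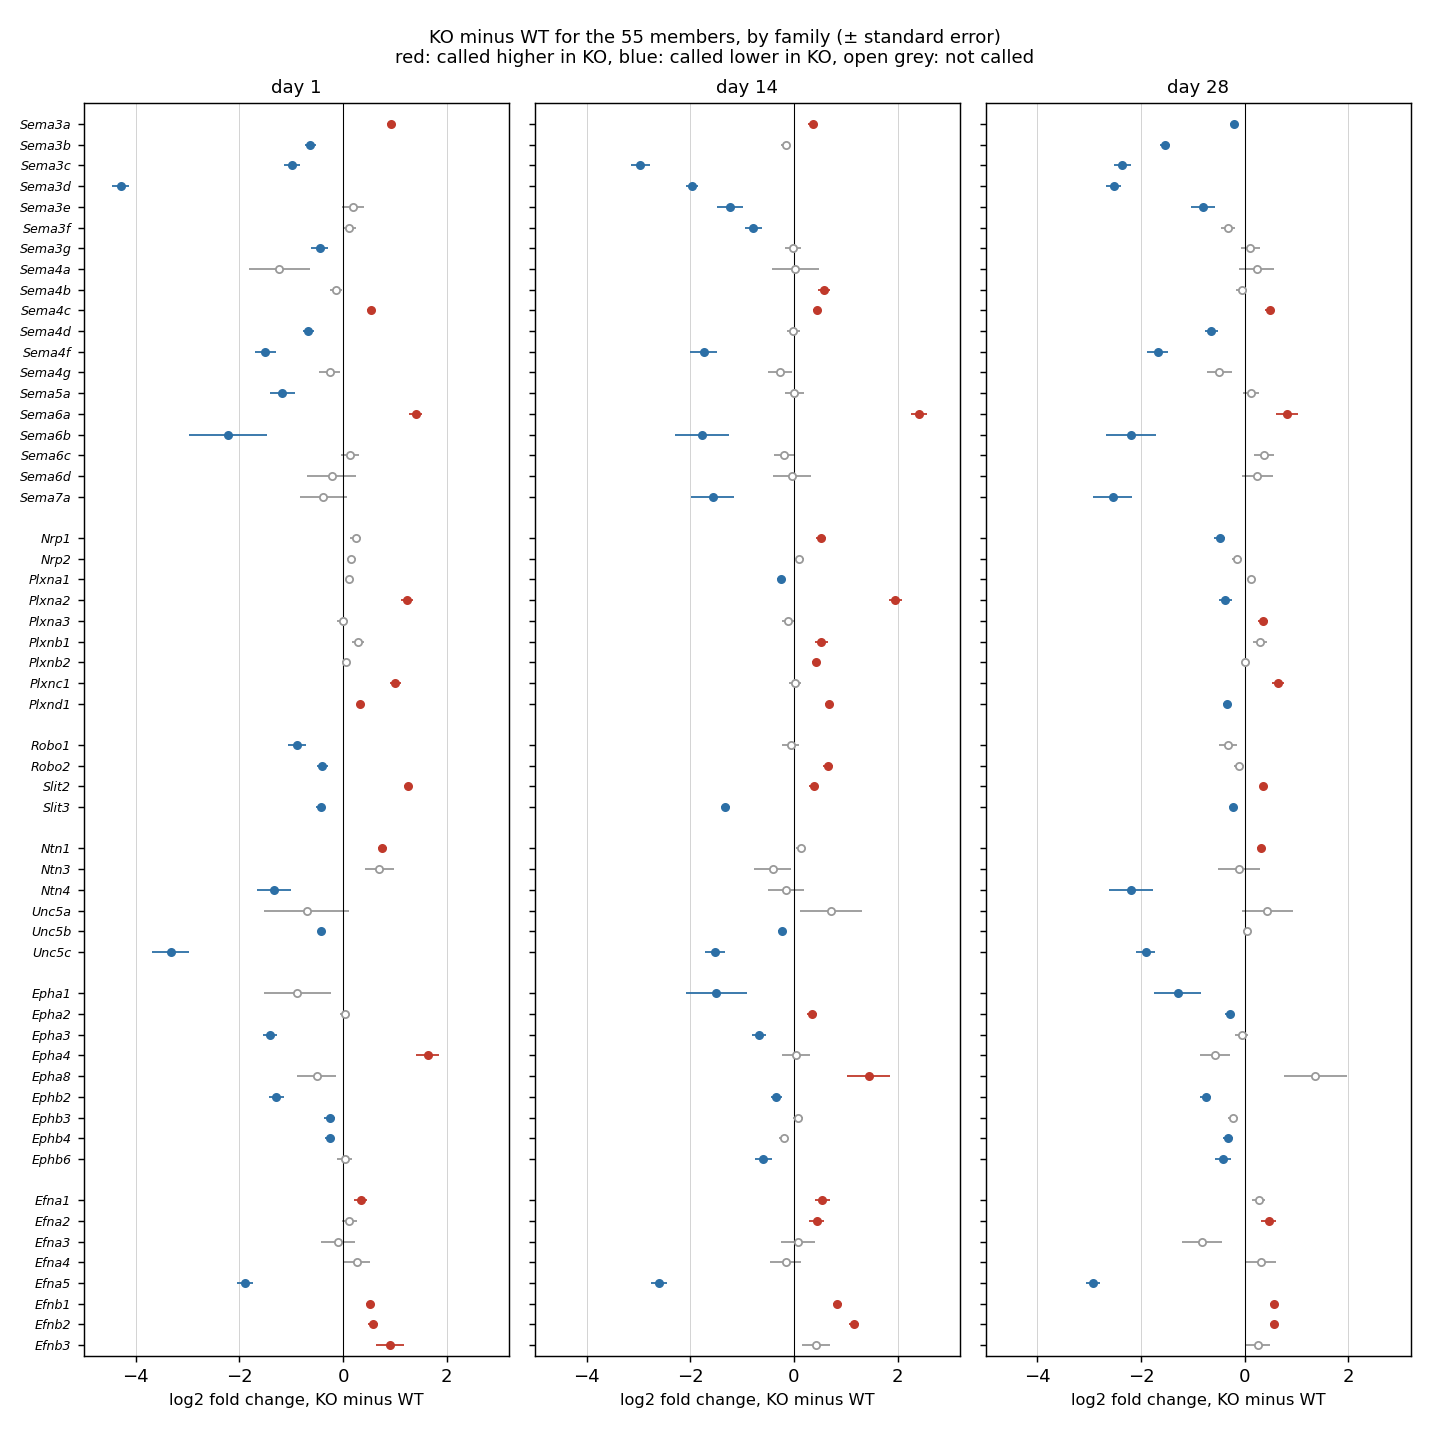
Difference between KO and WT for the 55 guidance genes, one panel per day, as log2 fold change (KO minus WT, x axis) with its standard error as bar. Red points were called higher in KO, blue points lower and open points were not called. Sema3d on day 1 lies farthest left at -4.29, and Sema6a on day 14 farthest right at 2.41.

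Called in the same direction on all 3 days were 13 of the 55. Efnb1, Efnb2, Sema4c, Sema6a and Slit2 were higher in KO each time, which is 9.09% of the guidance genes and 7.4% of all genes. Efna5, Ephb2, Sema3c, Sema3d, Sema4f, Sema6b, Slit3 and Unc5c were lower each time, which is 14.5% and 8.67%, with Sema6b among them, which entered through WT libraries only. A further 6 were called higher on one day and lower on another (Epha2, Nrp1, Plxna2, Plxnd1, Robo2 and Sema3a), 10.9% of the guidance genes and 5.74% of all genes. Not called on any day were 9 genes, 16.4% against 29.9% of all genes, and Nrp2, the most abundant member per kilobase, was one of them. The comparisons of the 3 days use different libraries.

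The promoters of 4 genes called in one direction throughout are shown here to put the sequence beside the change. They were taken from the 18 genes given in full below for a called difference of at least 2-fold on some day. Among these, Efna5 and Sema3d had the lowest median difference over the 3 days, and Efnb2 and Slit2 follow Sema6a at the upper end. Efnb1 and Sema4c, also higher in KO throughout, did not reach 2-fold and were not in that choice. The promoter of Sema6a is not shown. Each runs from 250 bases before to 50 after the RefSeq start on the gene's own strand (build GRCm38.p6). The Sema3d window ends before the start of that gene in the GENCODE annotation (12383385), while the other windows span theirs. Capitals mark matches, on either strand, to 3 motifs: GGAATG of TEAD factors, TGANTCA of AP-1 and TGACG, the core of the cAMP response element. Such factors act downstream of mechanical and calcium signals in many cells.
Efna5 (chr17:62881268-62881567, minus strand): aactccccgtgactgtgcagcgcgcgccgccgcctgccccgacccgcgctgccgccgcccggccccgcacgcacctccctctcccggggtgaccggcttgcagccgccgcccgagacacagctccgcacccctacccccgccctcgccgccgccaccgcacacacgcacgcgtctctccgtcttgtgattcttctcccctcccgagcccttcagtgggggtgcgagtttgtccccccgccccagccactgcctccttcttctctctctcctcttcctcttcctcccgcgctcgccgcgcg
Sema3d (chr5:12382916-12383215, plus strand): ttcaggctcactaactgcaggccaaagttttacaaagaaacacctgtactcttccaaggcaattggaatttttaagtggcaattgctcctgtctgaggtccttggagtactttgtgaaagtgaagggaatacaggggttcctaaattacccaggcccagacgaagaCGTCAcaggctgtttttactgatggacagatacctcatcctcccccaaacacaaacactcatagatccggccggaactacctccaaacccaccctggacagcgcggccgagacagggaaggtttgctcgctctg
Efnb2 (chr8:8661193-8661492, minus strand): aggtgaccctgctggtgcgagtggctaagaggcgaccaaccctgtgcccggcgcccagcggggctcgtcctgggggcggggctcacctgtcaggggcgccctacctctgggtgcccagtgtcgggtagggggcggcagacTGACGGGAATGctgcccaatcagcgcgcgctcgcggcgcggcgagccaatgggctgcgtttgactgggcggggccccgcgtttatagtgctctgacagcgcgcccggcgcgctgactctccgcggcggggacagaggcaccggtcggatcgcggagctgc
Slit2 (chr5:47982905-47983204, plus strand): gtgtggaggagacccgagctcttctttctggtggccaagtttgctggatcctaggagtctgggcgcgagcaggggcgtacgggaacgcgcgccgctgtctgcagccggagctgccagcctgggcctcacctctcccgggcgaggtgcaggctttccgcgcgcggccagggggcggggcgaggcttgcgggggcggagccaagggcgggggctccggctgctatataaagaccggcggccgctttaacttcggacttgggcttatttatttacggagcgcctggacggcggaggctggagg
The Efnb2 promoter held a cAMP response element core directly followed by the TEAD letters, and the Sema3d promoter held 1 such core, on the opposite strand. The Efna5 and Slit2 windows held none of the 3. Over all 27025 promoters of this length, 14.6% held GGAATG, 7.93% TGANTCA and 21.0% TGACG. Of the 49 guidance genes with a promoter in the table, 14.3%, 4.08% and 18.4% did. The GC content was 73.3% for Efna5, 49.7% for Sema3d, 72.3% for Efnb2 and 68.0% for Slit2. A match of letters is not a bound site, and the windows without one say nothing of the factors.

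Among the ligands, more semaphorins were called lower than higher in KO on each day. Sema3d, Sema3c and Sema4f were lower and Sema6a was higher on all 3 days. Of 19 semaphorins, 3 were higher and 8 lower on day 1, 4 higher and 7 lower on day 14, and 2 higher and 9 lower on day 28. These are 15.8% and 42.1%, 21.1% and 36.8%, and 10.5% and 47.4%, where all genes had 19.5% and 20.8%, 23.8% and 25.9%, and 19.8% and 21.2%. Sema6b, which entered through WT only, is among the lower ones on each day. Their median difference was -0.38, -0.16 and -0.32 on the 3 days. Summed per kilobase, the secreted class 3 semaphorins stood at 20.3 ± 0.231, 24.2 ± 0.0541 and 13.7 ± 0.325 CPM in KO, against 29.4 ± 0.523, 39.0 ± 0.598 and 31.4 ± 2.52 CPM in WT (SD, n = 2). The KO libraries lay below the WT libraries in that sum on each day. On day 1 Sema3d averaged 0.449 CPM per kilobase in KO and 9.0 in WT. Sema3a lay the other way on that day, at 7.13 and 3.75. The day 1 means of Sema3e and Sema3f were also higher in KO, and those of Sema3b, Sema3c and Sema3g lower.

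Sema3d (ENSMUSG00000040254.11, chromosome 5, 12383385 to 12588948, plus strand, GRCm38) encodes a secreted semaphorin. In KO its level was 2.56 and 5.15 CPM on day 1, 26.9 and 32.7 CPM on day 14, and 12.6 and 10.4 CPM on day 28. In WT it was 75.8 and 78.9, 114 and 120, and 71.0 and 60.3 CPM. Both KO libraries were lower than both WT libraries on every day, and day 1 was the lowest point of the KO line. The difference was -4.29 ± 0.16 on day 1 (19.6-fold lower in KO, adjusted p = 2.91e-14), -1.97 ± 0.12 on day 14 (adjusted p = 2.61e-11) and -2.53 ± 0.14 on day 28 (adjusted p = 1.06e-11). Without replicate 2 of KO day 1, the higher of the pair, the day 1 difference was -4.91.

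Sema3c (chromosome 5, 17574281 to 17730268, plus strand), a secreted semaphorin known for its part in the outflow vessels of the heart, was lower in KO on all 3 days. Its level in KO was 7.09 and 8.61, 2.74 and 2.74, and 6.49 and 4.21 CPM on days 1, 14 and 28. In WT it was 15.4 and 16.0, 21.4 and 21.4, and 27.3 and 26.5 CPM. The lines did not overlap on any day and were closest on day 1. The differences were -0.99 ± 0.16 (adjusted p = 2.81e-05), -2.96 ± 0.19 (adjusted p = 7.24e-11) and -2.36 ± 0.16 (adjusted p = 2.75e-10).

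Sema3b (chromosome 9, 107597674 to 107609229, minus strand) is a secreted semaphorin studied as a tumour suppressor in human cells. Its level was 23.8 and 23.2, 55.6 and 53.4, and 18.8 and 16.8 CPM in KO, against 36.6 and 36.2, 57.4 and 64.3, and 56.3 and 46.6 CPM in WT. Both lines were higher on day 14 than on day 1, and on day 28 the KO libraries were below all others. The difference was -0.63 ± 0.10 on day 1 (adjusted p = 4.83e-05) and -1.54 ± 0.10 on day 28 (adjusted p = 3.27e-10), while -0.16 ± 0.09 on day 14 was not called (adjusted p = 0.183).

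Sema3e (chromosome 5, 14025276 to 14256689, plus strand), which binds Plxnd1 without a neuropilin, was among the rarer class 3 genes. Its level was 4.87 and 5.44, 2.93 and 2.4, and 2.6 and 3.8 CPM in KO, against 4.68 and 4.4, 6.41 and 6.02, and 5.3 and 6.03 CPM in WT. The KO libraries were the lower ones on days 14 and 28 only. The difference was -1.23 ± 0.25 on day 14 (adjusted p = 0.000336) and -0.80 ± 0.23 on day 28 (adjusted p = 0.00828). Without replicate 1 of KO day 28 that last difference was -0.57 and no longer called (adjusted p = 0.0952), and on day 1 it was 0.19 ± 0.22 (adjusted p = 0.532).

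Sema3a (chromosome 5, 13125414 to 13602565, plus strand), the class 3 semaphorin known as a bone-protecting factor of osteoblasts, was higher in KO on day 1. Its level was 101 and 96.9, 61.5 and 59.5, and 47.8 and 45.2 CPM in KO, against 49.0 and 54.9, 47.8 and 46.6, and 51.5 and 56.2 CPM in WT. The KO libraries were the higher ones on days 1 and 14 and the lower ones on day 28. The difference was 0.93 ± 0.08 on day 1 (adjusted p = 4.24e-09), 0.36 ± 0.08 on day 14 (adjusted p = 0.00124) and -0.21 ± 0.08 on day 28 (adjusted p = 0.0418). The day 28 call was lost when any one of 9 libraries was left out (adjusted p = 0.0554 to 0.227). Sema3d, Sema3a, Sema3e and Sema3c lie in this order along chromosome 5, and on day 1 Sema3a was called higher, Sema3d and Sema3c lower and Sema3e was not called.

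Sema3f and Sema3g completed the class. Sema3f was lower in KO on day 14 only, at 9.34 and 9.77 CPM against 17.8 and 14.7 CPM in WT (-0.78 ± 0.16, adjusted p = 0.00043). Sema3g differed by -0.45 on day 1 (adjusted p = 0.0319), a call that leaving out any of the 4 day 1 libraries removed (adjusted p = 0.055 to 0.248).

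Of the membrane-bound class 4, Sema4f (chromosome 6, 82911885 to 82939769, minus strand) was lower in KO on all 3 days. Its level was 3.76 and 3.38, 1.89 and 1.89, and 2.42 and 3.06 CPM in KO, against 10.8 and 9.32, 7.17 and 5.32, and 8.44 and 9.33 CPM in WT. No KO library reached the lowest WT library. The differences were of one size, -1.5 ± 0.20 (adjusted p = 4.48e-06), -1.74 ± 0.26 (adjusted p = 9.83e-06) and -1.68 ± 0.21 (adjusted p = 2.54e-06). Sema4d, the plexin B1 ligand that restrains osteoblasts, was lower in KO on day 1 at 19.4 and 18.6 CPM against 33.5 and 27.1 CPM, and on day 28 at 16.4 and 18.7 CPM against 28.5 and 26.6 CPM. On day 14 it was 27.8 and 25.5 CPM in KO and 27.4 and 26.1 CPM in WT, and overlapped. Sema4c, a ligand of plexin B2, was higher in KO throughout, at 62.4 to 75.9 CPM against 45.0 to 55.4 CPM in WT. The gene D430040D24Rik on the opposite strand overlaps 7.27% of the exon length of Sema4c, and the strand setting of the counting is not given. Sema4b was higher in KO on day 14 only, and Sema4a and Sema4g were not called on any day.

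Sema6a, a transmembrane semaphorin that binds A-type plexins, was the semaphorin with the largest upward difference. Its level was 64.0 and 62.5, 57.6 and 63.1, and 7.44 and 8.08 CPM in KO, against 23.0 and 24.7, 13.2 and 8.91, and 5.51 and 3.22 CPM in WT. The lines did not overlap on any day, and both were at their lowest on day 28. The difference was 1.40 ± 0.12 on day 1 (adjusted p = 1.13e-08), 2.41 ± 0.15 on day 14 (adjusted p = 2.26e-11) and 0.81 ± 0.21 on day 28 (adjusted p = 0.00432). Without replicate 2 of WT day 28 the last was 0.50 and not called (adjusted p = 0.0543).

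Sema5a (chromosome 15, 32244810 to 32696341, plus strand), a transmembrane semaphorin with thrombospondin repeats, was lower in KO on day 1 only. Its level was 3.08 and 2.87, 15 and 11.8, and 18.3 and 16.7 CPM in KO, against 7.22 and 6.17, 14.6 and 11.8, and 18.8 and 13.1 CPM in WT. On days 14 and 28 the libraries of the lines overlapped. The difference was -1.17 ± 0.24 on day 1 (adjusted p = 0.000484), 0.01 ± 0.18 on day 14 and 0.12 ± 0.16 on day 28.

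Sema6b and Sema7a were rare. Sema6b never exceeded 0.514 CPM in KO and lay between 0.394 and 1.95 CPM in WT. On day 1 its KO libraries held 3 counts in all and its WT libraries 18, a KO to WT ratio of 0.202 with an exact binomial 95% interval of 0.0381 to 0.691, which covers counting error only. Its calls were lost without either KO library or replicate 1 of WT on day 1 (adjusted p = 0.0848 to 0.209), and on day 14 without replicate 1 of KO or replicate 2 of WT (adjusted p = 0.0609 and 0.0513). Sema7a, a membrane-anchored semaphorin that binds Plxnc1 and integrins, was 0.755 and 0.857 CPM in KO and 2.78 and 1.97 CPM in WT on day 14, and 0.433 and 0.747 CPM against 4.19 and 2.97 CPM on day 28. Its day 14 call was lost without replicate 1 of WT (adjusted p = 0.0707). Sema6c and Sema6d were not called on any day.

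**Figure D2:**
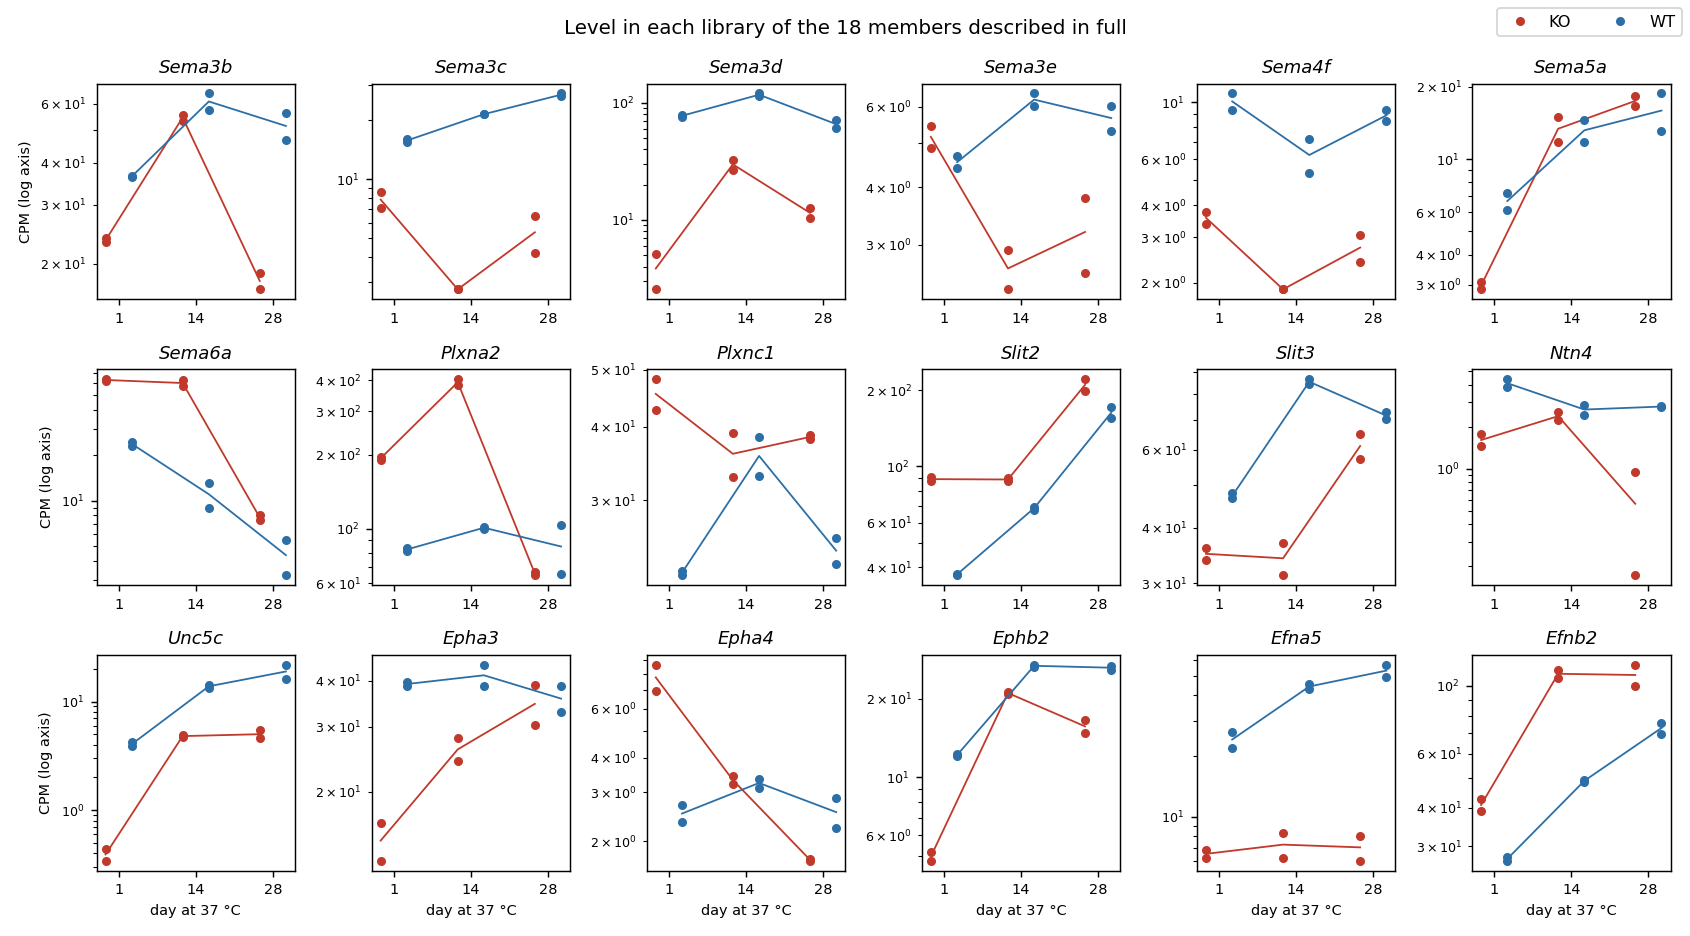
Level in each library of the 18 guidance genes given in full, in CPM on a log axis, against the day at 37 °C (days evenly spaced). Red is KO and blue is WT, points are libraries and lines join the means of 2. Efna5, Sema3c, Sema3d, Sema4f and Unc5c lie lower in KO on every day, and Sema6a, Slit2 and Efnb2 higher.

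The semaphorin receptors were dominated by Nrp2, and Plxna2 was the one that differed most between the lines. Per kilobase of exon, Nrp2 averaged 162 CPM over the 12 libraries, ahead of Plxnb2 with 58.3 CPM, and both stood above the Unc5b and Efnb1 values of 33.1 and 25.9 CPM. Of 9 plexins and neuropilins, 3 were called on day 1, each higher in KO, and 5 had an unadjusted p under 0.05. On day 14, 5 were higher and 1 lower, and on day 28, 2 were higher and 3 lower. The share higher was 33.3%, 55.6% and 22.2%, against 19.5%, 23.8% and 19.8% of all genes. Nrp2, a co-receptor for class 3 semaphorins and for VEGF, was not called on any day, at 2580 and 2570, 2160 and 2090, and 1260 and 1130 CPM in KO and 2340 and 2260, 1970 and 1990, and 1520 and 1140 CPM in WT.

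Plxna2 (chromosome 1, 194618218 to 194816869, plus strand) encodes an A-type plexin that pairs with neuropilins and also binds Sema6a. Its level was 196 and 190, 404 and 381, and 64.9 and 66.8 CPM in KO, against 83.5 and 81.3, 100 and 102, and 104 and 65.5 CPM in WT. The KO libraries stood far above WT on days 1 and 14, and on day 28 the lines overlapped. The difference was 1.23 ± 0.12 on day 1 (adjusted p = 4.15e-08) and 1.96 ± 0.12 on day 14 (adjusted p = 2.31e-11). On day 28 it was -0.37 ± 0.12 (adjusted p = 0.0203), which rested on the higher WT library: without replicate 1 of WT day 28 it was 0.01 (adjusted p = 0.939). That day 28 call was also lost without replicate 1 or 2 of KO (adjusted p = 0.0882 and 0.0677). Sema6a and Plxna2, a known ligand and receptor pair, were thus both higher in KO on days 1 and 14.

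Plxnc1 (chromosome 10, 94790866 to 94944835, minus strand), the receptor of Sema7a, was higher in KO on days 1 and 28. Its level was 48.2 and 42.8, 32.9 and 39.1, and 38.7 and 38.2 CPM in KO, against 22.8 and 22.4, 33.0 and 38.4, and 25.9 and 23.4 CPM in WT. On day 14 the libraries of the lines overlapped. The difference was 1.01 ± 0.10 on day 1 (adjusted p = 1.32e-07), 0.02 ± 0.11 on day 14 and 0.64 ± 0.11 on day 28 (adjusted p = 5.91e-05).

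Among the other receptors, Plxnd1, the receptor of Sema3e, was 77.7 and 76.0, 121 and 110, and 71.5 and 77.7 CPM in KO, against 60.5 and 61.6, 71.8 and 73.2, and 96.6 and 92.9 CPM in WT. It was called higher in KO on days 1 and 14 and lower on day 28, with no overlap. Nrp1, the main neuropilin of Sema3a, was 42.9 and 42.3 CPM in KO against 30.3 and 28.8 CPM in WT on day 14, and 20.2 and 20.8 CPM against 31.0 and 26.0 CPM on day 28. Plxnb1, the receptor of Sema4d, and Plxnb2 were higher in KO on day 14 only, and a gene on the opposite strand overlaps 2.68% of the exon length of Plxnb1. Plxna1 was lower in KO on day 14 by a small amount (-0.25, adjusted p = 0.00542), and the call was lost without replicate 2 of KO day 14 (adjusted p = 0.115). For Plxna1 an opposite-strand gene overlaps 10.7% of the exon length. Plxna3 was higher on day 28 (0.35, adjusted p = 0.00975), and its call was lost without replicate 1 of KO or replicate 2 of WT of that day (adjusted p = 0.0702 and 0.15).

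Of the Slits, ligands that repel cells through Robo receptors, Slit2 was higher and Slit3 lower in KO on all 3 days. Slit2 (chromosome 5, 47983138 to 48307733, plus strand) was 90.4 and 87.7, 89.8 and 87.7, and 199 and 221 CPM in KO, against 37.2 and 37.7, 67.4 and 69.4, and 171 and 155 CPM in WT. The KO libraries were the higher ones on each day, most clearly on day 1. The difference was 1.25 ± 0.08 on day 1 (adjusted p = 5.15e-11), 0.38 ± 0.08 on day 14 (adjusted p = 0.0003) and 0.36 ± 0.07 on day 28 (adjusted p = 0.000183).

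Slit3 (chromosome 11, 35121224 to 35708507, plus strand) was 33.9 and 36.0, 31.3 and 37.0, and 65.2 and 57.1 CPM in KO, against 47.8 and 46.6, 84.2 and 86.5, and 72.8 and 70.4 CPM in WT. The widest gap fell on day 14. The difference was -0.43 ± 0.09 on day 1 (adjusted p = 0.000579), -1.32 ± 0.09 on day 14 (adjusted p = 1.51e-10) and -0.23 ± 0.08 on day 28 (adjusted p = 0.0301). The day 28 call was lost without replicate 2 of KO (-0.13, adjusted p = 0.322) and without replicate 1 of WT (-0.21, adjusted p = 0.0813). Summed per kilobase, the Slits were 9.3 ± 0.134, 9.15 ± 0.582 and 18.4 ± 0.386 CPM in KO and 9.31 ± 0.134, 16.8 ± 0.319 and 18.3 ± 0.683 CPM in WT (SD, n = 2), so the sums stood apart on day 14 only.

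The Robo receptors moved differently. Robo1 was lower in KO on day 1, at 6.58 and 8.31 CPM against 14.6 and 13.1 CPM in WT, and was not called later. Robo2 was 34.0 and 35.8, 104 and 98.7, and 40.7 and 32.5 CPM in KO, against 47.6 and 44.6, 64.2 and 63.4, and 41.7 and 37.0 CPM in WT. It was lower in KO on day 1 and higher on day 14, and on day 28 the lines overlapped. Summed, the Robos were highest in KO on day 14.

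Among netrins and their Unc5 receptors, Unc5c and Ntn4 were lower and Ntn1 higher in KO. Of 6 genes, 1 was higher and 3 lower on day 1, 2 were called on day 14, each lower, and 1 was higher and 2 lower on day 28. The share lower was 50%, 33.3% and 33.3%, against 20.8%, 25.9% and 21.2% of all genes, in a family too small to read more from it. Unc5c (chromosome 3, 141465216 to 141834924, plus strand), a netrin receptor that mediates repulsion and a dependence receptor, was nearly off in KO on day 1. Its level was 0.342 and 0.441, 4.72 and 4.89, and 4.58 and 5.43 CPM in KO, against 4.23 and 3.87, 13.3 and 14.3, and 21.7 and 16.1 CPM in WT. No KO library reached its WT counterparts, and both lines were lowest on day 1. The difference was -3.33 ± 0.36 on day 1 (adjusted p = 2.88e-07), -1.52 ± 0.19 on day 14 (adjusted p = 1.43e-06) and -1.91 ± 0.18 on day 28 (adjusted p = 2.94e-08).

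Ntn4 (chromosome 10, 93640681 to 93747207, plus strand), a netrin of basement membranes, was rare. Its level was 1.45 and 1.77, 2.55 and 2.23, and 0.173 and 0.951 CPM in KO, against 3.84 and 4.4, 2.44 and 2.89, and 2.79 and 2.81 CPM in WT. The lines overlapped on day 14, and the KO libraries of day 28 differed from each other. The difference was -1.34 ± 0.33 on day 1 (adjusted p = 0.00239), -0.15 ± 0.35 on day 14 (adjusted p = 0.754) and -2.19 ± 0.42 on day 28 (adjusted p = 0.000285). Without replicate 1 and without replicate 2 of KO day 28 it was -1.54 and -3.94.

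Ntn1, the founding secreted netrin, was 122 and 121 CPM in KO and 71.3 and 71.5 CPM in WT on day 1, where it was called higher. On day 14 the values were 81.6 and 78.9 CPM in KO and 72.2 and 73.9 CPM in WT, which was not called. On day 28 they were 81.7 and 69.7 CPM in KO and 64.3 and 56.1 CPM in WT (0.32, adjusted p = 0.00317), and the call was lost without replicate 1 of KO (0.21, adjusted p = 0.0714). Unc5b, the most abundant Unc5 receptor, was 172 and 172 CPM in KO and 234 and 228 CPM in WT on day 1, where it was called lower. On day 14 it was lower by a small amount (-0.23, adjusted p = 0.0063), and the call was lost without replicate 1 of KO or replicate 1 of WT (adjusted p = 0.0631 and 0.0944). Ntn3, whose exons share bases with genes on both strands (2.72% opposite, 1.74% same), and Unc5a were not called on any day.

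Of the 9 Eph receptors, the tyrosine kinases that bind ephrins, 1 was higher and 4 lower in KO on day 1, 2 higher and 4 lower on day 14, and 5 were called on day 28, each lower, with 7 at an unadjusted p under 0.05. The share lower was 44.4%, 44.4% and 55.6%, against 20.8%, 25.9% and 21.2% of all genes, with Epha1, which entered through WT only, among those of days 14 and 28. Ephb2 (chromosome 4, 136647539 to 136835988, minus strand), a receptor of B-type ephrins, was lower on all 3 days. Its level was 4.78 and 5.15, 21.1 and 20.9, and 16.6 and 14.7 CPM in KO, against 12.0 and 12.3, 26.9 and 26.5, and 25.8 and 26.7 CPM in WT. The lines did not overlap and were closest on day 14. The difference was -1.29 ± 0.14 on day 1 (adjusted p = 4.06e-07), -0.34 ± 0.11 on day 14 (adjusted p = 0.0139) and -0.75 ± 0.11 on day 28 (adjusted p = 1.52e-05). The day 14 call was lost without either KO library (adjusted p = 0.0571 and 0.0721) or replicate 1 of WT of that day (adjusted p = 0.0798), and with DESeq2 (adjusted p = 0.06).

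Epha3 (chromosome 16, 63543534 to 63864175, minus strand), a receptor that prefers Efna5, was lower in KO on days 1 and 14. Its level was 16.5 and 13, 24.2 and 27.9, and 38.8 and 30.4 CPM in KO, against 38.6 and 39.7, 44.1 and 38.6, and 38.7 and 32.8 CPM in WT. The libraries overlapped on day 28 only. The difference was -1.41 ± 0.13 on day 1 (adjusted p = 3.91e-08), -0.67 ± 0.13 on day 14 (adjusted p = 0.000198) and -0.06 ± 0.12 on day 28 (adjusted p = 0.734).

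Epha4 (chromosome 1, 77367185 to 77515088, minus strand), which binds both A-type and some B-type ephrins, was the only Eph receptor called higher in KO on day 1. Its level was 6.92 and 8.61, 3.21 and 3.43, and 1.73 and 1.7 CPM in KO, against 2.34 and 2.69, 3.12 and 3.36, and 2.86 and 2.23 CPM in WT. The KO line had its highest values on day 1 and its lowest on day 28, while WT lay between 2.23 and 3.36 CPM throughout. The difference was 1.63 ± 0.22 on day 1 (adjusted p = 6.17e-06), 0.04 ± 0.27 on day 14 (adjusted p = 0.908) and -0.58 ± 0.29 on day 28 (adjusted p = 0.119).

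The other Eph receptors differed less or were rare. Ephb4, the osteoblast receptor of Efnb2, was 61.9 and 61.7 CPM in KO and 75.8 and 72.0 CPM in WT on day 1, and 46.4 and 41.6 CPM against 57.6 and 51.7 CPM on day 28. It was called lower both times (-0.26, adjusted p = 0.0139, and -0.32, adjusted p = 0.00493), and each call was lost without some library of its day (adjusted p = 0.084 to 0.116 on day 1 without either KO library or replicate 1 of WT, and 0.0862 and 0.0533 on day 28 without replicate 2 of KO or replicate 1 of WT). Epha2 was higher in KO on day 14, at 71.5 and 67.6 CPM against 54.3 and 54.6 CPM, and lower on day 28, a call lost without replicate 1 of KO or replicate 1 of WT (adjusted p = 0.156 and 0.132). Ephb6, a family member without kinase activity, was lower on day 14, at 13.5 and 13.3 CPM against 19.8 and 20.7 CPM. It was lower on day 28 too (-0.42, adjusted p = 0.0391), and that call was lost without any one of 8 libraries (adjusted p = 0.0505 to 0.466).

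Ephb3 was called lower on day 1 (-0.26, adjusted p = 0.0374), and the call was lost without any one of 7 libraries (adjusted p = 0.0555 to 0.172). Epha8 and Epha1 stayed at or under 2.74 CPM. Epha8 was higher in KO on day 14 (1.44, adjusted p = 0.00683), lost without replicate 2 of WT (adjusted p = 0.0656). Epha1 was lower on days 14 and 28 (-1.5 and -1.29). Its day 14 call was lost without any of the 4 libraries of day 1 KO and day 14 KO or replicate 1 of WT day 14 (adjusted p = 0.0502 to 0.36), and its day 28 call without replicate 2 of KO or of WT (adjusted p = 0.184 and 0.235). For Epha1 an opposite-strand gene overlaps 6.01% of the exon length.

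Of the ephrins, Efna5 was lower and Efnb1 and Efnb2 were higher in KO on all 3 days. Of 8 ephrins, 4 were higher and 1 lower on day 1, 4 higher and 1 lower on day 14, and 3 higher and 1 lower on day 28, with medians of 0.30, 0.43 and 0.30. The share higher was 50%, 50% and 37.5%, against 19.5%, 23.8% and 19.8% of all genes. Efna5 (ENSMUSG00000048915.12, chromosome 17, 62604184 to 62881317, minus strand), a lipid-anchored ligand of EphA receptors, was the one that was lower. Its level was 6.83 and 6.25, 6.23 and 8.31, and 8.05 and 6.04 CPM in KO, against 22.0 and 26.3, 45.6 and 42.9, and 56.6 and 49.5 CPM in WT. The KO line lay between 6.04 and 8.31 CPM throughout, and the WT line was lowest on day 1. The difference was -1.89 ± 0.15 on day 1 (adjusted p = 4.24e-09), -2.60 ± 0.15 on day 14 (adjusted p = 1.18e-11) and -2.93 ± 0.14 on day 28 (adjusted p = 2.09e-12), which is 3.69-fold, 6.06-fold and 7.63-fold lower in KO.

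Efnb2 (chromosome 8, 8617434 to 8661242, minus strand), the transmembrane ligand of Ephb4, was higher in KO throughout. Its level was 42.7 and 39.1, 113 and 106, and 117 and 100 CPM in KO, against 26.9 and 27.7, 48.6 and 49.5, and 75.9 and 69.9 CPM in WT. The lines did not overlap on any day. The difference was 0.58 ± 0.09 on day 1 (adjusted p = 3.84e-05), 1.16 ± 0.09 on day 14 (adjusted p = 4.79e-10) and 0.57 ± 0.08 on day 28 (adjusted p = 7.95e-06). Efnb1, whose loss in mice deforms the skull and face, was 103 and 107, 140 and 135, and 90.7 and 79.3 CPM in KO, against 71.5 and 75.9, 74.6 and 79.3, and 59.5 and 55.8 CPM in WT, and was called higher each day. Summed per kilobase, the B-type ephrins were 37.6 ± 0.301, 57.1 ± 1.92 and 41.9 ± 3.75 CPM in KO and 25.9 ± 0.898, 30.4 ± 0.911 and 28.6 ± 1.51 CPM in WT (SD, n = 2).

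Efna1 was higher in KO on day 14, at 19.7 and 20.0 CPM against 14.8 and 11.9 CPM. It was also called on day 1 (0.34, adjusted p = 0.0389), and that call was lost without replicate 1 or 2 of KO or replicate 1 of WT (adjusted p = 0.145, 0.109 and 0.282). Efnb3 was higher on day 1 (0.91, adjusted p = 0.00988), lost without replicate 2 of KO or of WT (adjusted p = 0.0506 and 0.0924). Efna2 was higher on days 14 and 28 (0.44, adjusted p = 0.0152, and 0.46, adjusted p = 0.0168). Leaving out any one of the 4 day 14 libraries removed the first of these calls (adjusted p = 0.0503 to 0.0767), and leaving out replicate 1 of KO or replicate 1 of WT of day 28 removed the other (adjusted p = 0.22 and 0.0567). Efna3 and Efna4, where opposite-strand transcripts overlap 14.1% and 10.5% of the exon length, were not called on any day.

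**Figure D3:**
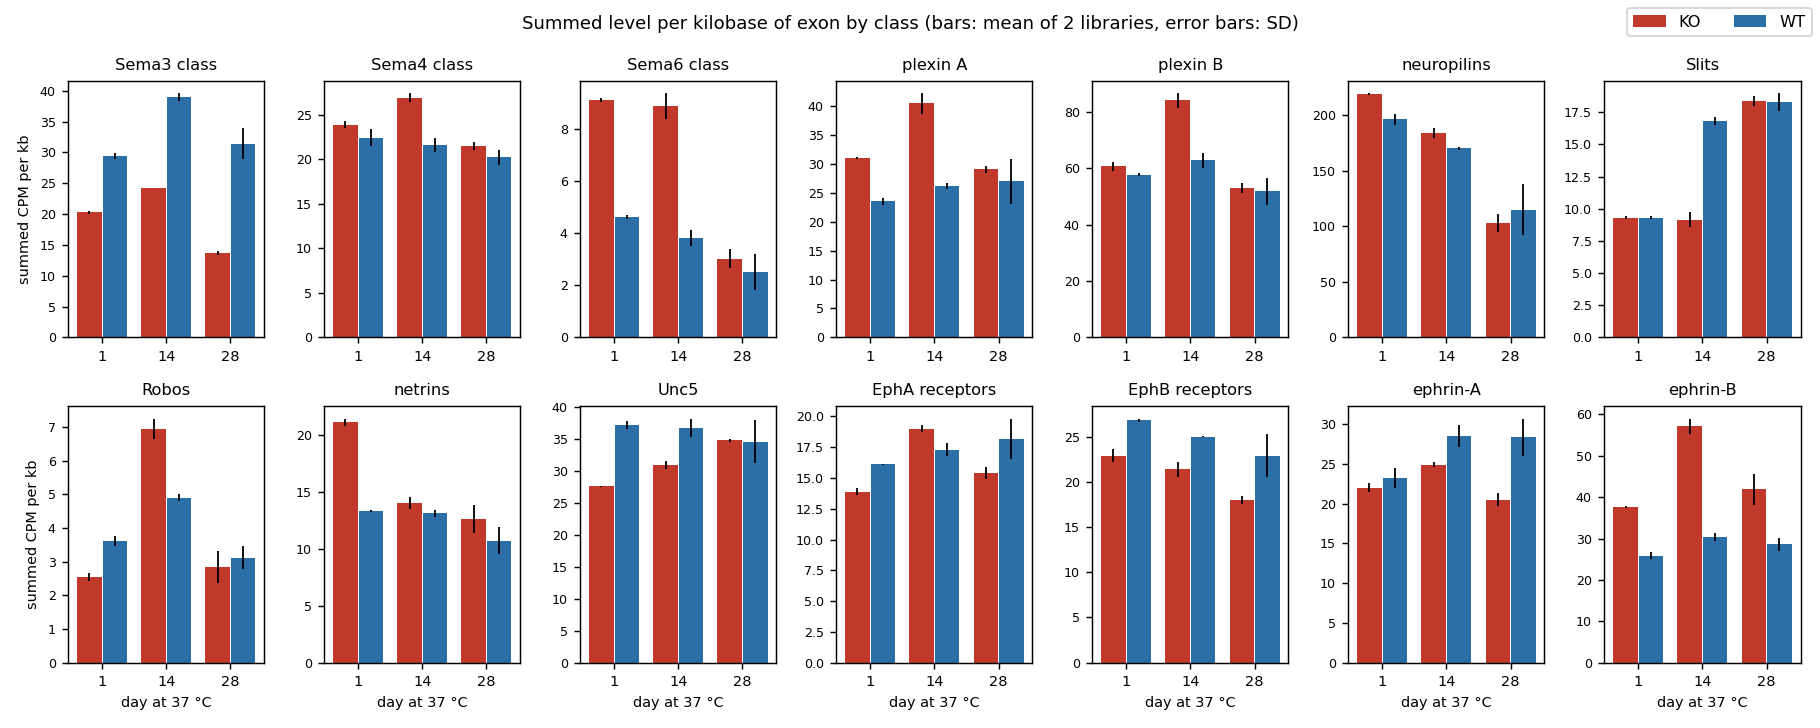
Summed level of 14 ligand and receptor classes in CPM per kilobase of exon, against the day at 37 °C. Bars are means of 2 libraries with the SD as error bar, red for KO and blue for WT. The class 3 semaphorin sum is lower in KO on each day, though not every gene of that class is. The B-type ephrin sum is higher in KO on each day, while the Slits stand apart on day 14 only.

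The second question of the design is how the genes changed during differentiation in each line. In the KO line 34 of the 55 were called between days 1 and 14, 23 higher on day 14 (19.4% of all genes were) and 11 lower (18%), against 37.5% called in either direction. In the later step, where 50.7% of all genes were called, it was 34 again, 8 higher on day 28 (25.6%) and 26 lower (25.1%). Over the whole course it was 35, 14 higher (28.2%) and 21 lower (27.4%), against 55.5% in either direction. The median change was 0.20 in the first step and -0.23 in the later one, against 0.00 and -0.01 over all genes. Unc5a, which entered through KO libraries only, is among the 23 higher in the first step and the 14 higher over the whole course.

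In the WT line 21 were called between days 1 and 14, 18 higher on day 14 (18.2% of all genes) and 3 lower (15.9%), against 34.1% in either direction. With library totals in place of TMM factors these were 16 higher and 6 lower, and the background split was 15% and 21.5%. In the later step it was 21, 5 higher on day 28 (17.9%) and 16 lower (16.8%), against 34.7% in either direction, and 12 without replicate 1 of WT day 14. Over the whole course it was 32, 19 higher (24.6%) and 13 lower (23.4%), against 48% in either direction. With library totals it was 19 higher and 19 lower, and the background split was 21.3% and 27.5%. The median change was 0.25 and -0.11 in the 2 steps. Sema6b, which entered through WT libraries only, is among the 18 higher in the first step. Sema6b and Epha1, which entered in the same way, are among the 19 higher over the whole course.

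In KO, among members with an average log2 CPM of 1 or more, the largest changes from day 1 to day 28 were those of Unc5c, Sema5a, Ephb2 and Sema3d upward and Sema6a, Epha4, Ntn3 and Plxna2 downward. The changes were 3.64 ± 0.35 for Unc5c (adjusted p = 2.3e-08), 2.56 ± 0.21 for Sema5a (adjusted p = 2.17e-09), 1.65 ± 0.14 for Ephb2 (adjusted p = 3.68e-09) and 1.53 ± 0.21 for Sema3d (adjusted p = 3.77e-06; 2.15 without replicate 2 of KO day 1). Downward they were -3.02 ± 0.15 for Sema6a (adjusted p = 5.05e-13), -2.18 ± 0.25 for Epha4 (adjusted p = 2.17e-07), -1.90 ± 0.33 for Ntn3 (adjusted p = 4.84e-05) and -1.55 ± 0.12 for Plxna2 (adjusted p = 7.87e-10). Ntn3 was 8.03 and 6.03 CPM in KO on day 1, 3.59 and 2.49 CPM on day 14 and 2.08 and 1.7 CPM on day 28. Below that level Sema4a, Unc5a and Sema6d were also called upward (2.98, 2.31 and 2.03). Unc5a had entered through KO libraries only, and its call did not hold under every alternative setting.

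In WT, with the same limit on level, Unc5c, Slit2, Efnb2 and Sema5a had the largest upward changes, and Sema6a, Ntn3, Nrp2 and Plxnb1 the largest downward ones. Unc5c changed by 2.23 ± 0.18 (adjusted p = 1.99e-09), Slit2 by 2.13 ± 0.07 (adjusted p = 4.19e-15), Efnb2 by 1.42 ± 0.09 (adjusted p = 4.4e-11) and Sema5a by 1.26 ± 0.18 (adjusted p = 7.07e-06). Sema6a changed by -2.42 ± 0.18 (adjusted p = 4.09e-10), Nrp2 by -0.79 ± 0.09 (adjusted p = 4.44e-07) and Plxnb1 by -0.72 ± 0.13 (adjusted p = 0.000127). Ntn3 changed by -1.09 ± 0.34 (adjusted p = 0.0111), and this value moved with single libraries: it was -2.11 without replicate 1 of WT day 28, -0.55 without replicate 2 (adjusted p = 0.16) and -0.83 without replicate 1 of WT day 1 (adjusted p = 0.126). Unc5c, Sema5a, Sema6a and Ntn3 appear in both lists, in one direction in both lines. Below the limit on level, Epha8 was called downward in WT (-2.63). Called upward in WT (1.52 to 1.87) were Sema7a, Sema6d, Sema4a and, entered through WT libraries only, Epha1 and Sema6b. Of these, the calls of Sema4a, Epha1 and Sema6b did not hold under every alternative setting (adjusted p up to 0.0835, 0.106 and 0.0809).

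Whether the lines changed differently was tested directly, as the change in KO minus the change in WT. From day 1 to day 14 this difference was called for 28 of the 55, 17 more positive in KO (9.19% of all genes) and 11 more negative (9.65%), against 18.8% in either direction. At day 28 it was called for 18, 6 more positive (10.6%) and 12 more negative (9.46%), against 20.0% in either direction. Both tests share the day 1 libraries, as do all changes from day 1 within a line. Receptors accounted for 9 of the 17 more positive differences at day 14, which is 39.1% of the receptors against 9.19% of all genes. Robo2, Ephb2 and Plxna2 were among them. The calls of the other receptors, Epha3, Unc5c, Epha8, Plxnd1, Plxnb2 and Robo1, did not hold under every alternative setting.

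Plxna2, Epha3 and Sema3a show the kinds of difference. Plxna2 changed by -1.55 in KO and 0.05 in WT to day 28, a difference of -1.60 ± 0.17 (adjusted p = 9.75e-07). Epha3 changed by 1.23 in KO and -0.13 in WT, a difference of 1.36 ± 0.18 (adjusted p = 1.75e-05). Sema3a changed by -1.09 in KO and 0.05 in WT, a difference of -1.14 ± 0.11 (adjusted p = 3.18e-07). In all 3 the change stood in the KO line, and the WT libraries of days 1 and 28 overlapped.

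**Figure D4:**
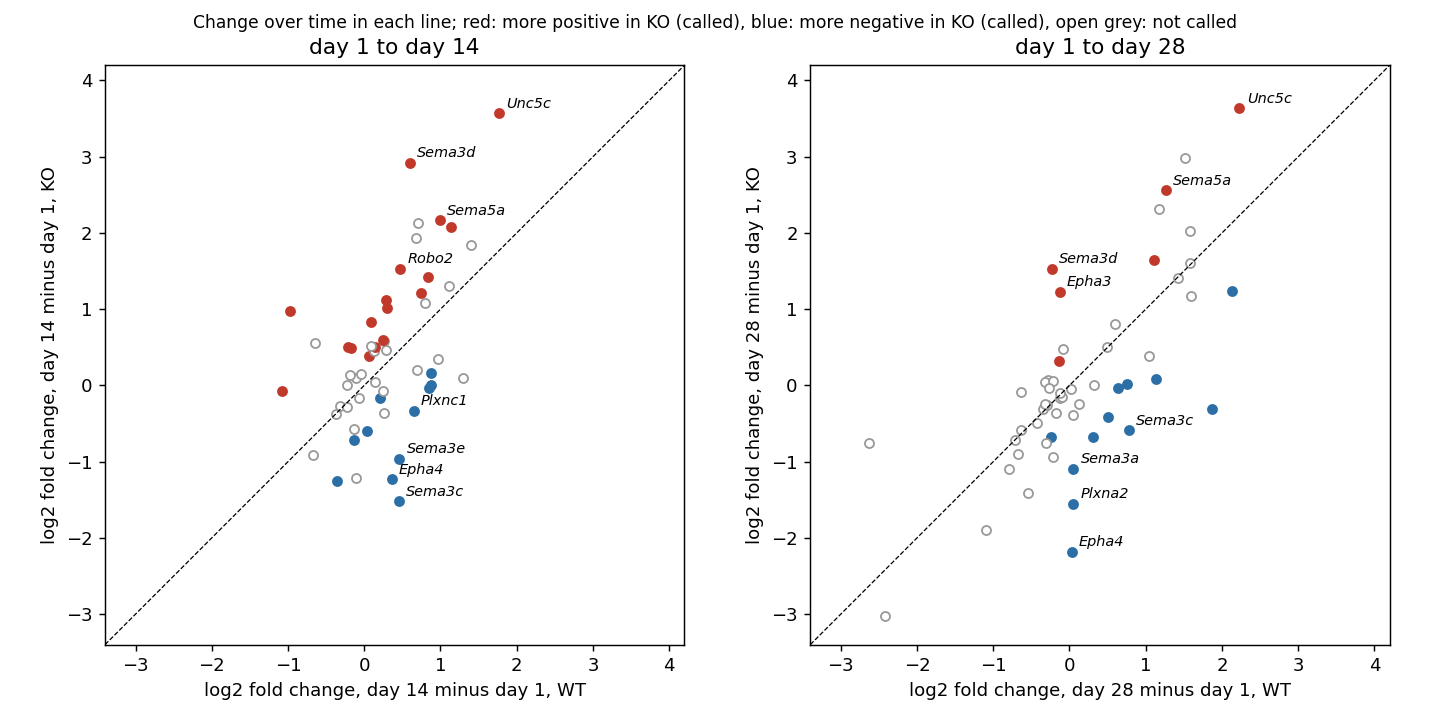
Change over time in KO (y axis) against the change in WT (x axis), both as log2 fold change, for the 55 guidance genes in one panel to day 14 and in the other to day 28, both counted from day 1. The dashed line marks equal change, and the 8 largest called differences with an average log2 CPM of 1 or more are named in each panel. Unc5c and Sema3d lie above the line in both panels (1.81 and 2.32 at day 14), Epha4 and Sema3c below it (-1.58 and -1.97).

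Beside the ligands and receptors, 50 co-receptors and intracellular effectors of guidance signalling were examined, of which 46 were tested (Dcc, Dscam, Crmp1 and Dpysl4 were too low). Of the 46, 13 were higher and 11 lower in KO on day 1, 16 higher and 14 lower on day 14, and 8 higher and 16 lower on day 28. The shares of all genes were 19.5% and 20.8%, 23.8% and 25.9%, and 19.8% and 21.2%, so several of these counts lie near the background. Their median difference was 0.00, -0.05 and -0.12. Chl1, an adhesion molecule that joins semaphorin receptor complexes, was lower on all 3 days, at 0.342 and 0.515 CPM in KO against 2.99 and 2.36 CPM in WT on day 1 (-2.60 ± 0.43, adjusted p = 4.92e-05). Flrt2, a ligand of Unc5 receptors, was higher on day 1, at 38.4 and 37.5 CPM in KO against 17.4 and 19.3 CPM in WT (1.05 ± 0.12, adjusted p = 3.1e-07), and Flrt1 of the same family was lower (-2.34 ± 0.38, adjusted p = 4.03e-05).

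On day 14 the collapsin response mediators Dpysl3 and Dpysl2, which carry semaphorin signals to microtubules, were higher in KO. Dpysl3 was 233 and 213 CPM in KO against 93.5 and 106 CPM in WT (1.17 ± 0.09, adjusted p = 8.73e-10). Dpysl2 was 109 and 114 CPM in KO against 40.7 and 49.4 CPM in WT (1.32 ± 0.14, adjusted p = 7.7e-08). The actin-binding protein Ablim1, which takes part in netrin signalling in the worm, was lower on days 14 and 28, at 14.3 and 12.5 CPM in KO against 38.7 and 40.0 CPM in WT on day 14 (-1.55 ± 0.13, adjusted p = 3.38e-09). On day 28 the actin regulator Enah was higher, at 469 and 448 CPM in KO against 282 and 261 CPM in WT (0.76 ± 0.06, adjusted p = 6.75e-09).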

How the data were processed

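The data were 12 poly(A) RNA libraries of OCY454 cells. The authors deposited raw counts per gene. The submitters' processing notes name STAR, featureCounts, Subread, edgeR and the build mm10, without versions or roles, and the strand setting is not given in the sources used here. Of 32248 rows, 3 transgene rows were left out.

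Genes were kept with filterByExpr (minimum count 10, minimum total 15), scaled by TMM and tested with the quasi-likelihood test of edgeR 4.0.16 in R 4.3.3, with 1 coefficient for each of 6 groups. The test had 6 residual degrees of freedom and a common biological variation of 5.53%. It was two-sided, and p-values were Benjamini-Hochberg adjusted over 13772 genes. Positions came from GENCODE M21 (GRCm38) and promoters from RefSeq (GRCm38.p6). The fit was tested on simulated data. Alternatives were other scalings, other filters, a replicate block, only the groups compared, DESeq2 1.42.0 and leaving out each library.

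Full values are given for guidance genes whose log2 CPM averaged 1 or more and that were called with at least 2-fold difference between the lines on some day. For changes over time and differences of change they are the 4 highest and 4 lowest called, and for effectors a choice among the 3 highest and 3 lowest. The values of other members were added after they had been seen. Members and lists were chosen with earlier results of these data known. Same-numbered libraries were not paired: of 15 correlations of their deviations from the group means, 1 was over 0.1.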

Additional observations from a re-analysis of the deposited data

Results flagged for a closer look

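For 16 results, the 4 most positive and 4 most negative at each time among those called whose log2 CPM averaged 1 or more, the change over time differed between the KO and WT lines by a direct test of the difference (edgeR's quasi-likelihood test, change in KO minus change in WT, log2, with standard error and Benjamini-Hochberg adjusted p). Each rests on 2 libraries per group, and both comparisons share the day 1 libraries.

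From day 1 to day 14, 11 of the 55 guidance genes were more negative in KO, and the 4 furthest down are given. Sema3c changed by -1.52 in KO and 0.45 in WT (difference -1.97 ± 0.26, adjusted p = 1.55e-05). Epha4 changed by -1.23 in KO and 0.36 in WT (difference -1.58 ± 0.35, adjusted p = 0.0029). Sema3e changed by -0.96 in KO and 0.46 in WT (difference -1.42 ± 0.33, adjusted p = 0.00439). Plxnc1 changed by -0.33 in KO and 0.65 in WT (difference -0.99 ± 0.15, adjusted p = 8.05e-05). In all 4 the fitted change had opposite signs in the lines, though the WT changes of Epha4 and Sema3e were not called. The WT change of Sema3c and the KO changes of Sema3e and Plxnc1 were called, but not under every alternative setting.

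Of the 17 that were more positive in KO from day 1 to day 14, the 4 furthest up had changes of one sign in both lines. Epha8, at a lower level, had a difference of 1.96, whose call did not hold under every alternative setting (adjusted p up to 0.127). Robo2 changed by 1.53 in KO and 0.47 in WT (difference 1.06 ± 0.13, adjusted p = 6.76e-06). Sema5a changed by 2.17 in KO and 0.99 in WT (difference 1.18 ± 0.30, adjusted p = 0.00813). Unc5c changed by 3.57 in KO and 1.77 in WT (difference 1.81 ± 0.46, adjusted p = 0.00783). Sema3d changed by 2.92 in KO and 0.60 in WT (difference 2.32 ± 0.22, adjusted p = 2.85e-07). Without replicate 2 of KO day 1 the Sema3d difference was 2.94. The Sema5a call was lost without replicate 2 of KO day 1 (1.13, adjusted p = 0.0515) or replicate 1 of KO day 14 (0.99, adjusted p = 0.0524), and the Unc5c call without replicate 1 of KO day 1 (1.64, adjusted p = 0.0623).

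From day 1 to day 28 the most negative ones were Epha4 (-2.21 ± 0.37, adjusted p = 0.000188), Plxna2 (-1.60 ± 0.17, adjusted p = 9.75e-07), Sema3c (-1.36 ± 0.23, adjusted p = 0.000198) and Sema3a (-1.14 ± 0.11, adjusted p = 3.18e-07). Epha4 changed by -2.18 in KO and 0.03 in WT, and Sema3c by -0.59 in KO and 0.78 in WT.

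Sema7a, at a lower level, had a difference of -2.18, whose call did not hold under every alternative setting (adjusted p up to 0.0988). The most positive ones were Sema5a (1.29 ± 0.29, adjusted p = 0.00296), Epha3 (1.36 ± 0.18, adjusted p = 1.75e-05), Unc5c (1.41 ± 0.46, adjusted p = 0.0328) and Sema3d (1.76 ± 0.24, adjusted p = 2.06e-05; 2.38 without replicate 2 of KO day 1). Sema5a changed by 2.56 in KO and 1.26 in WT, Unc5c by 3.64 in KO and 2.23 in WT, and Sema3d by 1.53 in KO and -0.23 in WT. The Unc5c call was lost without replicate 1 (1.25, adjusted p = 0.163) or replicate 2 (1.62, adjusted p = 0.111) of KO day 1, replicate 2 of KO day 28 (1.27, adjusted p = 0.0895) or replicate 1 of WT day 1 (1.35, adjusted p = 0.0795).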

How the results depend on the processing

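With 1 library left out at a time, the number of guidance genes called in KO against WT was 26 to 35 on day 1, 28 to 34 on day 14 and 24 to 30 on day 28. Over time it was 26 to 38 (days 1 to 14), 25 to 36 (days 14 to 28) and 28 to 37 (days 1 to 28) in KO, and 15 to 25, 12 to 28 and 27 to 39 in WT. For the differences of change it was 20 to 31 at day 14 and 14 to 23 at day 28. The count between days 14 and 28 in WT, 21, was 13 when only the groups compared entered the fit and 12 without replicate 1 of WT day 14. With the replicate number as a block the 11 counts were 33, 33, 30, 34, 35, 34, 23, 21, 33, 28 and 18, in the order day 1, day 14 and day 28 of KO against WT, days 1 to 14, 14 to 28 and 1 to 28 in KO and then in WT, and the differences at days 14 and 28. No count moved by over 1.5 times under the block.

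Of 1634 alternative values for 86 single-gene results, 1608 kept their side of the threshold. Direction was compared only for the 77 results that were called. Of their values, 25 kept the direction but lost the call, and 1 reversed, that of Plxna2 on day 28. Plxna2 was 0.01 without replicate 1 of WT day 28 and -0.66 without replicate 2, the range over all libraries left out. With only the groups compared and with DESeq2 the day 28 values of Plxna2 were -0.38 (adjusted p = 0.102) and -0.37 (adjusted p = 0.115), and those of Slit3 -0.24 (adjusted p = 0.108) and -0.23 (adjusted p = 0.0748). The Unc5c difference of change at day 28 was 1.41 (adjusted p = 0.0576) and 1.44 (adjusted p = 0.0646). The cause was not tested. With 2 libraries per group, depth limits the rare genes most, Sema6b, Epha1, Epha8 and Ntn4 among them.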
